A study of Homo sapiens with 6 samples.

Results

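The Notch receptors NOTCH1, NOTCH2 and NOTCH3, the ligands JAG1, JAG2 and DLL1, the receptor-modifying enzyme LFNG and the target genes HES1, HEY1 and HEYL were examined by RNA-seq in lung adenocarcinoma cells under TGFβ. These 10 genes were chosen by name, with earlier results of these data known. All 10 had a row among the 21293 genes of the deposited table. The cells were H2087-LCC, a latency competent derivative of the human lung adenocarcinoma line H2087 that was selected in mice and is labelled as a dormant metastatic derivative. There were 3 groups of 2 libraries: cells kept for 3 days with SB505124 (SB), which blocks the kinase of the type I TGFβ receptor, cells given TGFβ for 3 days, and cells given TGFβ for 7 days. All groups came from this 1 cell population in culture, and SB was sampled at 3 days alone. In the comparison of 7 days of TGFβ with SB, the treatment and the longer culture therefore cannot be told apart. Between 3 and 7 days of TGFβ, longer treatment and longer culture cannot be told apart either. Libraries of 1 group are technical replicates by the account of the study, and where they share a culture the SDs and p-values measure only the spread between these libraries.

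Notch receptors are membrane proteins that are activated by Jagged or Delta-like ligands on a neighboring cell. Ligand binding exposes the receptor to cleavage by an ADAM protease and then by γ-secretase, and the freed intracellular domain joins the DNA-binding protein RBPJ and a Mastermind coactivator in the nucleus to turn on HES and HEY repressor genes. In the airway, Notch activity favors secretory over ciliated fates and restrains neuroendocrine differentiation.

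The values are library-size-normalized read counts, rounded to whole numbers, and the libraries summed to between 34306283 and 36340734 normalized counts, from an estimated 32000000 to 40000000 assigned reads. All 10 epithelial markers examined averaged 10 normalized counts or more, with a summed level of 107509 and 126480 in SB, 99539 to 111771 at 3 days and 90207 to 103018 at 7 days. Of these markers, 7 fell and 1 rose at 3 days in the test described below, where 14.0% of all tested genes fell and 14.9% rose. E-cadherin (CDH1) was at 371 and 635 normalized counts in SB, 28 and 24 at 3 days and 10 and 9 at 7 days. The surfactant gene SFTPB separated the SB libraries, at 1104 in replicate 1 and 8273 in replicate 2. All 5 TGFβ-induced genes examined (SMAD7 and SKIL among them) were higher than in SB at both times, where 14.9% and 27.7% of all tested genes were. Of 6 blood cell markers, CD79A alone reached a mean of 10.

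Differences were tested on log2(normalized count + 1) with limma over the 14395 genes whose mean reached 10, at a Benjamini-Hochberg adjusted p of 0.05. Of the 10 Notch genes 9 could be tested, and DLL1 fell below the minimum. After 3 days of TGFβ, 4 of the 9 rose (NOTCH1, NOTCH2, JAG1 and LFNG) and 1 fell (JAG2) against SB, where 29.0% of all tested genes passed, 14.9% higher and 14.0% lower. After 7 days, 5 rose (HES1 in addition) and 1 fell, where 54.5% of all genes passed, 27.7% higher and 26.9% lower. Between 3 and 7 days, 3 rose (NOTCH2, NOTCH3 and LFNG) and 1 fell (JAG2), beside 33.2% of all genes, 17.0% higher and 16.2% lower. The median log2 difference of the 9 genes was 0.25 at 3 days, 0.44 at 7 days and 0.19 between the times, beside -0.02, -0.00081 and 0.02 over all tested genes. The comparisons with SB share the SB libraries.

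**Figure D1:**
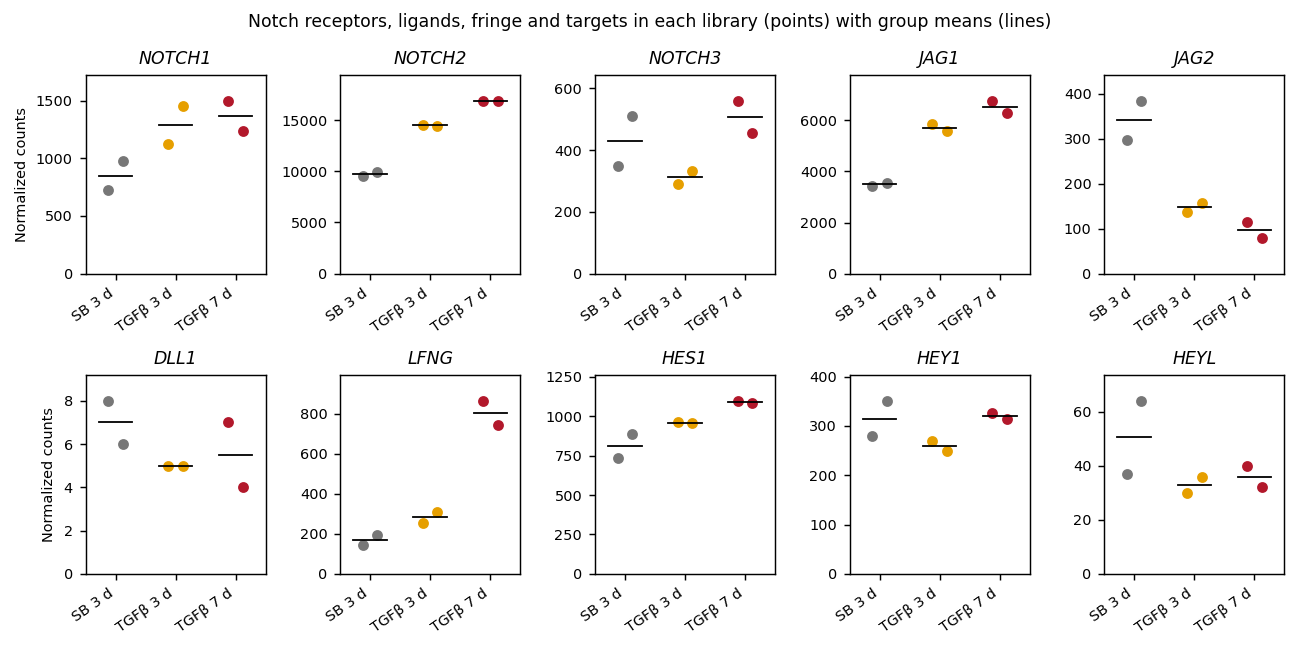
Normalized read counts (vertical axes, linear from 0) of each of the 10 Notch genes in each library (points), with group means as lines, for SB 3 d (gray), TGFβ 3 d (orange) and TGFβ 7 d (red). NOTCH2, JAG1 and LFNG step up from group to group, JAG2 steps down, and DLL1 stays at 8 or below.

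NOTCH2 was the main receptor transcript of these cells, and it rose with TGFβ. Its gene lies on chromosome 1 (GRCh37, chr1:120454176-120643366, minus strand). NOTCH2 was at 9582 and 9974 normalized counts in SB, 14569 and 14412 after 3 days and 16884 and 16931 after 7 days. The 3 groups did not overlap, and the libraries of a group differed by much less than the groups. Against SB the log2 difference of NOTCH2 was 0.57 ± 0.07 (SE) at 3 days (limma, adjusted p = 0.00014) and 0.79 ± 0.07 at 7 days (limma, adjusted p = 4.42e-06). Between the times NOTCH2 rose by 0.22 on the log2 scale (limma, adjusted p = 0.040), and leaving out any 1 of the 4 TGFβ libraries ended that call (adjusted p from 0.15 to 0.20), as did median-of-ratios scaling (0.068) and a fit without the trend (0.11). With a correction of the libraries for GC content and for the length of the transcripts, the NOTCH2 differences at 7 days became 0.46 against SB and 0.05 against 3 days (adjusted p = 0.49). The near-identical paralog NOTCH2NL was also counted, at 450 to 587 normalized counts. Only reads mapping once were counted, so reads that match NOTCH2 and NOTCH2NL equally were left out of both. How many reads of the shared exons were lost in this way is not known.

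NOTCH1 also rose, with more spread between libraries. It lies on chromosome 9 (GRCh37, chr9:139388885-139440500, minus strand). NOTCH1 was at 726 and 973 normalized counts in SB, 1126 and 1455 after 3 days, and 1500 and 1238 after 7 days. Both TGFβ groups were above both SB libraries, while the 3-day and 7-day libraries overlapped. The log2 difference of NOTCH1 from SB was 0.61 ± 0.16 (SE) at 3 days (limma, adjusted p = 0.015) and 0.70 ± 0.16 at 7 days (limma, adjusted p = 0.0033). The 3-day call was lost without SB replicate 1 (0.40, adjusted p = 0.12) and without TGFβ 3-day replicate 2 (0.42, adjusted p = 0.11), and also with no filter on low values or no trend in the fit (adjusted p = 0.11 and 0.097). With the GC and length correction the 7-day difference of NOTCH1 was 0.23 (adjusted p = 0.013), and the difference between the times turned from 0.09 (adjusted p = 0.70) to -0.23 (adjusted p = 0.019).

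NOTCH3 differed from the other receptors in that it was lowest at 3 days. The gene is on chromosome 19 (GRCh37, chr19:15269849-15311806, minus strand). NOTCH3 was at 349 and 511 normalized counts in SB, 292 and 333 after 3 days, and 561 and 456 after 7 days. The 3-day libraries lay below all others, and the SB and 7-day libraries overlapped. Against SB the log2 difference of NOTCH3 was -0.44 ± 0.18 (SE) at 3 days (limma, adjusted p = 0.096) and 0.26 ± 0.18 at 7 days (limma, adjusted p = 0.25), and neither passed the threshold. From 3 to 7 days NOTCH3 rose by 0.70 ± 0.18 (limma, adjusted p = 0.013), and this call was lost without TGFβ 3-day replicate 1 (0.60, adjusted p = 0.072) or without TGFβ 7-day replicate 1 (0.55, adjusted p = 0.12), and with no filter or no trend (adjusted p = 0.087 and 0.069). The SB libraries set the other calls: without SB replicate 1, NOTCH3 passed at 3 days (-0.71, adjusted p = 0.014) and stood at -0.01 at 7 days, and without SB replicate 2 it passed at 7 days (0.53, adjusted p = 0.026). With the GC and length correction NOTCH3 stood at -0.57 at 3 days (adjusted p = 0.0037), -0.17 at 7 days and 0.40 between the times.

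The fourth receptor gene, NOTCH4, known mainly from endothelium and not among the 10 genes, was low in SB and rose most in fold among the receptors. NOTCH4 (GRCh37, chr6:32162620-32191844, minus strand) was at 14 and 9 normalized counts in SB, 34 and 28 after 3 days and 169 and 134 after 7 days. Its groups did not overlap, and its log2 differences were 1.38 ± 0.30 (SE) and 3.63 ± 0.30 against SB (limma, adjusted p = 0.0044 and 1.23e-06). Of 6 endothelial markers, 4 reached a mean of 10, and the summed level of the 6 was 172 and 306 in SB, 184 to 194 at 3 days and 266 to 298 at 7 days. Among the 4 tested, 3 rose and 1 fell at 3 days against SB, where 29.0% of all genes passed. At 7 days 2 rose and 1 fell, where 54.5% of all genes passed. The angiopoietin receptor gene TEK rose from 11 and 12 to 115 and 117 at 7 days, and TIE1 from 1 and 0 to 51 and 40. The endothelial genes CDH5 and VWF, both low, were at 2 and 0 and at 4 and 3 normalized counts at 7 days, below their SB values of 14 and 20 and of 7 and 13.

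Per kilobase of transcript, which allows genes to be set side by side, NOTCH2 held 86.0% ± 2.33 (SD, n = 2) of the summed receptor level under SB, and 87.9% and 86.9% after 3 and 7 days of TGFβ. NOTCH1 held 8.88%, 9.33% and 8.39% of that level, and NOTCH3 4.95%, 2.49% and 3.43%. NOTCH4 held 0.17%, 0.32% and 1.32%, so that it stayed the least abundant receptor transcript. Summed over the receptors, SB had 996 ± 55.2 normalized counts per kilobase (SD, n = 2), 3 days of TGFβ 1444 ± 17.3 and 7 days 1704 ± 28.7. No group overlapped another in this sum, though an exact permutation test of 2 against 2 libraries cannot go below 0.333. The order of the 4 receptors, NOTCH2, NOTCH1, NOTCH3 and NOTCH4, was the same in all 6 libraries.

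**Figure D2:**
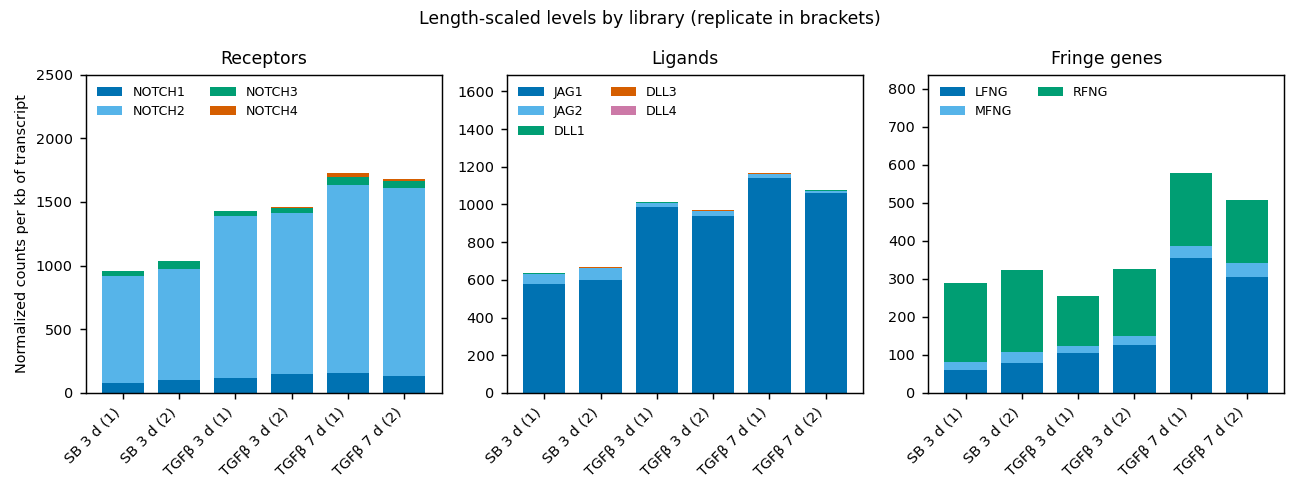
Stacked normalized counts per kilobase of canonical transcript (vertical axis, linear from 0) in each library for the 4 receptor, 5 ligand and 3 fringe genes. NOTCH2 makes up most of the receptor bars and JAG1 most of the ligand bars, and the LFNG segment grows to 60.7% of the fringe level at 7 days.

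Among the ligands JAG1 rose and JAG2 fell. JAG1 (GRCh37, chr20:10618332-10654647, minus strand), the Jagged ligand mutated in Alagille syndrome, was at 3447 and 3546 normalized counts in SB, 5856 and 5574 after 3 days and 6773 and 6298 after 7 days. The groups did not overlap. Against SB, JAG1 differed by 0.71 ± 0.08 (SE) at 3 days (limma, adjusted p = 5.36e-05) and by 0.90 ± 0.08 on the log2 scale at 7 days (limma, adjusted p = 3.38e-06). The further difference of 0.19 ± 0.08 between the times missed the threshold (limma, adjusted p = 0.094). In none of the 18 alternative settings was a JAG1 call against SB lost.

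JAG2 (GRCh37, chr14:105607319-105635161, minus strand), the second Jagged ligand, was at 298 and 385 normalized counts in SB, 138 and 157 after 3 days and 115 and 79 after 7 days. Every TGFβ library was below both SB libraries, and every 7-day library below both 3-day libraries. The log2 difference from SB was -1.20 ± 0.21 (SE) at 3 days (limma, adjusted p = 0.0012) and -1.82 ± 0.21 at 7 days (limma, adjusted p = 2.26e-05). The further fall of 0.62 between the times (log2 difference -0.62, limma, adjusted p = 0.041) was lost in 6 of 18 settings, among them no filter, no trend and equal library totals (adjusted p from 0.059 to 0.14), and without TGFβ 7-day replicate 2 it was -0.35 (adjusted p = 0.33). Without TGFβ 3-day replicate 1 or 2 the difference stood at -0.71 (adjusted p = 0.073) and -0.53 (adjusted p = 0.17). In bulk RNA, fewer cells with a transcript and less of it per cell cannot be told apart. A long noncoding RNA on the same strand shares 7.33% of the exon bases of JAG2, and 1 on the opposite strand shares 3.29% of those of JAG1, whose reads this unstranded library kit does not separate.

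DLL1 (GRCh37, chr6:170591294-170615653, minus strand), a Delta-like ligand, was at 8 and 6 normalized counts in SB, 5 and 5 after 3 days and 7 and 4 after 7 days. These few reads allowed no test, and 9.69% of the DLL1 exon bases overlap FAM120B on the opposite strand. The other Delta-like genes were as low, with DLL3 at 3 to 9 normalized counts in all libraries and DLL4 at 8 and 8 in SB, 4 and 5 at 3 days and 0 and 1 at 7 days. Per kilobase, JAG1 held 90.0% ± 1.38 (SD, n = 2) of the summed ligand level under SB, and 96.8% and 98.2% after 3 and 7 days of TGFβ. The share of JAG2 went from 9.02% ± 1.31 in SB to 2.58% and 1.49%. Summed over the ligands, SB had 654 ± 23.1 normalized counts per kilobase (SD, n = 2), 3 days of TGFβ 994 ± 29.6 and 7 days 1121 ± 62.4.

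LFNG showed the largest change of the 9 tested genes at 7 days, most of it after day 3. LFNG, on chromosome 7 (GRCh37, chr7:2552163-2568811, plus strand), encodes Lunatic fringe, a Golgi enzyme that extends O-fucose sugars on the Notch extracellular domain and so alters its response to Delta-like and Jagged ligands. LFNG was at 146 and 194 normalized counts in SB, 254 and 311 after 3 days and 866 and 746 after 7 days. The groups were clearly apart, and mean LFNG at 7 days was 4.74 times that in SB and 2.85 times that at 3 days. LFNG differed from SB by 0.74 ± 0.17 (SE) on the log2 scale at 3 days (limma, adjusted p = 0.0072), by 2.25 ± 0.17 at 7 days (limma, adjusted p = 7.18e-07) and by 1.51 ± 0.17 between the times (limma, adjusted p = 0.0001). The 3-day call was lost without TGFβ 3-day replicate 2 (0.59, adjusted p = 0.057) and with no filter (adjusted p = 0.061), and those at 7 days were kept in all 18 settings.

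The other fringe genes passed no test as higher than SB at either time. RFNG (Radical fringe) was at 390 and 399 normalized counts in SB, 246 and 330 after 3 days and 357 and 308 after 7 days. Its log2 difference of -0.47 at 3 days passed narrowly (limma, adjusted p = 0.0497) and lost its call in 8 settings, among them the omission of either SB library (adjusted p = 0.11 and 0.13), of TGFβ 3-day replicate 1 (-0.26, adjusted p = 0.40) and of either 7-day library (adjusted p = 0.069 for each). MFNG (Manic fringe) was at 43 and 61 normalized counts in SB, 38 and 44 after 3 days and 66 and 77 after 7 days. Against SB the log2 difference of MFNG at 7 days was 0.47 (limma, adjusted p = 0.14), with no overlap of the libraries. This difference was 0.72 without SB replicate 2 and 0.22 without SB replicate 1. MFNG rose by 0.79 between the times (limma, adjusted p = 0.035), a call lost without any 1 of the 4 TGFβ libraries (adjusted p from 0.072 to 0.20). Per kilobase, RFNG held 69.3% of the fringe level in SB and LFNG 22.6%, and at 7 days LFNG held 60.7% and RFNG 32.8%, so that the order of these genes was turned.

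**Figure D3:**
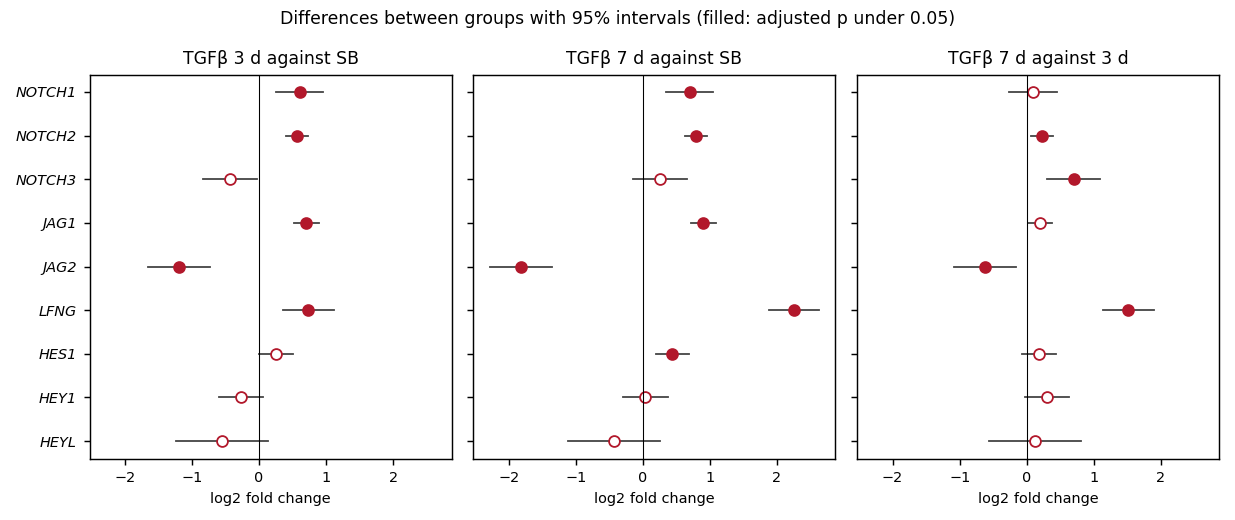
Log2 differences (horizontal axes) of the 9 tested Notch genes with 95% intervals (lines) for TGFβ 3 d against SB, TGFβ 7 d against SB and TGFβ 7 d against 3 d, with filled points at an adjusted p under 0.05. LFNG lies at 2.25 and JAG2 at -1.82 in the middle panel, while the intervals of HEY1 and HEYL include 0 in all panels.

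Of the target genes HES1, HEY1 and HEYL, HES1 alone passed a test, at 7 days. Their proteins are repressors of the basic helix-loop-helix class that bind E-box and N-box DNA. The promoters of HES1, HEYL and NRARP are shown because these genes are known to respond to Notch, while here HES1 rose, NRARP fell and HEYL passed no test. They are the 250 bases before the start of each gene as RefSeq gives it on GRCh38.p14, at chr3:194135898-194136147 (plus strand) for HES1, chr1:39639644-39639893 (minus strand) for HEYL and chr9:137302272-137302521 (minus strand) for NRARP, printed 5′ to 3′ on the strand of the gene. Capitals mark the RBPJ core TGGGAA on either strand.
HES1: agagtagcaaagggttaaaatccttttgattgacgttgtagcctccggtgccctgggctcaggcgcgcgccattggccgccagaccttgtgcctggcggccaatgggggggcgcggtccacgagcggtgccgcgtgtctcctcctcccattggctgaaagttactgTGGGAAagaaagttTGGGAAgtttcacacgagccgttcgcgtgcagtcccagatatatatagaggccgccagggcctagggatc
HEYL: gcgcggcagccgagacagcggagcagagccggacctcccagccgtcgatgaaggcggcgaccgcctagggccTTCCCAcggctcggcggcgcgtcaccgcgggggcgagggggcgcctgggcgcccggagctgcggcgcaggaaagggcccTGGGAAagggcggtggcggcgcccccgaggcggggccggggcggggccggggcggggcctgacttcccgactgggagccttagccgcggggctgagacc
NRARP: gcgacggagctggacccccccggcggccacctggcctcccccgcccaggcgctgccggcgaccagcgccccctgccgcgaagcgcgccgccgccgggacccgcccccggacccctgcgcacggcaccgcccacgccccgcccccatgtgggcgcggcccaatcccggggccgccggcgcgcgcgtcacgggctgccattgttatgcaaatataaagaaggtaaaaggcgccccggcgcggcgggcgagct
The HES1 window held the core at 84 and 70 bases before the start, both on the gene's strand, and the longer GTGGGAA at 85 bases. The HEYL window held the core at 178 bases on the opposite strand and at 99 bases on the gene's strand, with GTGGGAA at 178 bases on the opposite strand. Neither form was in the NRARP window. Bases outside these windows and other RBPJ sequences were not searched, and no link between these motifs and the changes was tested. Of 35116 RefSeq promoter windows of this length, 20.85% held TGGGAA and 5.43% held GTGGGAA on either strand, and each GTGGGAA includes a core. HES1 also held 3 N-boxes, CACNAG, at 165, 132 and 58 bases, a motif in 32.04% of the windows. RefSeq windows were at hand for 8 of the 10 genes, not for DLL1 or HEY1, and the core was in none of NOTCH1, NOTCH2, NOTCH3, JAG1 and JAG2 and in 1 LFNG start.

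HES1 (GRCh37, chr3:193853937-193856521, plus strand) rose modestly. It was at 732 and 884 normalized counts in SB, 964 and 954 after 3 days and 1097 and 1086 after 7 days. The groups did not overlap, and the TGFβ libraries of each time were almost level. The log2 difference of HES1 from SB was 0.25 ± 0.12 (SE) at 3 days (limma, adjusted p = 0.12) and 0.44 ± 0.12 at 7 days (limma, adjusted p = 0.0067), so that it passed at 7 days. Without SB replicate 2, the higher of the SB libraries, the 3-day difference was 0.39, and without SB replicate 1 it was 0.12. With the GC and length correction it was 0.32 and passed (limma, adjusted p = 0.044). The 7-day difference ran from 0.30 to 0.58 with 1 library left out.

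HEY1, a HES-related repressor (GRCh37, chr8:80674606-80680092, minus strand), was at 279 and 351 normalized counts in SB, 270 and 250 after 3 days and 327 and 314 after 7 days. The 7-day libraries lay between the SB libraries. The log2 difference of HEY1 was -0.27 (95% interval -0.60 to 0.07) at 3 days and 0.03 (-0.30 to 0.37) at 7 days, with adjusted p of 0.22 and 0.86 (limma). The 7-day value changed sign with equal library totals and without SB replicate 1 (-0.13), so that it has no settled direction.

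HEYL (GRCh37, chr1:40089107-40105315, minus strand), the third HEY-type repressor, was the lowest of the tested genes, at 37 and 64 normalized counts in SB, 30 and 36 after 3 days and 40 and 32 after 7 days. Its highest value was SB replicate 2. The log2 difference of HEYL was -0.55 (95% interval -1.24 to 0.13) at 3 days and -0.43 (-1.12 to 0.25) at 7 days, with adjusted p of 0.21 and 0.26 (limma). Without SB replicate 1, both passed, at -0.94 (adjusted p = 0.045) and -0.82 (adjusted p = 0.047), and without SB replicate 2 they were -0.17 and -0.05. At this depth and spread a change of HEYL could not be told from none.

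Of the 6 other HES and HEY genes, 3 could be tested. HES6, which counteracts HES1 in neural differentiation, was at 62 and 68 normalized counts in SB, 41 and 41 after 3 days and 24 and 27 after 7 days, and its 7-day log2 difference was -1.32 (limma, adjusted p = 0.00093). HES2 was at 206 and 225 in SB, 265 and 343 after 3 days and 314 and 269 after 7 days. Its rises of 0.48 and 0.43 passed narrowly (limma, adjusted p = 0.048 and 0.046), and both calls were lost without either SB library (adjusted p from 0.059 to 0.15), and on leaving out TGFβ 3-day replicate 2 for the first (0.30, adjusted p = 0.33) or either 7-day library for both (adjusted p from 0.066 to 0.26). HEY2 stayed at 9 to 24 and passed no test, HES4 and HES7 were at 13 or below, and HES5 was listed at 0 in all libraries. Per kilobase, HES1 held 65.1% of the summed HES and HEY level in SB, 71.7% at 3 days and 72.6% at 7 days, and HEY1 18.2%, 13.9% and 15.3%. With the length of all annotated exons in place of the canonical transcript, the HEY1 share was 10.3%, 7.77% and 8.57%.

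NRARP, a Notch-induced gene whose product binds the Notch transcription complex and damps it, fell while HES1 rose. NRARP (GRCh37, chr9:140194083-140196723, minus strand) was at 276 and 335 normalized counts in SB, 210 and 219 after 3 days and 117 and 91 after 7 days. The groups did not overlap and every step was downward. The log2 difference of NRARP was -0.50 ± 0.18 (SE) at 3 days (limma, adjusted p = 0.056), -1.55 ± 0.18 at 7 days (limma, adjusted p = 2.24e-05) and -1.05 ± 0.18 between the times (limma, adjusted p = 0.0014). The 3-day difference passed in 5 of 18 settings. With 1 library left out it ran from -0.64 (without SB replicate 1) to -0.36.

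Ranked per kilobase, the 10 genes in SB ran from NOTCH2 (856) over JAG1 (589), HES1 (513), HEY1 (143), NOTCH1 (88.8), LFNG (69.5), JAG2 (59.2), NOTCH3 (49.5) and HEYL (12.4) to DLL1 (1.85 normalized counts per kilobase). The neighbors NOTCH1 and LFNG, LFNG and JAG2, and JAG2 and NOTCH3 overlapped between libraries, and the other neighbors did not. At 7 days LFNG had passed HEY1 and NOTCH1, at 330 ± 34.7 (SD, n = 2) normalized counts per kilobase beside 146 ± 4.18 and 143 ± 19.4, and those overlapped each other. JAG2 had dropped to 16.8 ± 4.41, below NOTCH3 at 58.6 ± 8.55 and still above HEYL at 8.83. The order depends on the length used: over all annotated exons of each gene, in SB HES1 (392) stood above JAG1 (376), NOTCH1 (67.8) above HEY1 (57.4) and JAG2 (53.4) above LFNG (49.4 normalized counts per kilobase).

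The rest of the pathway was followed with 61 other genes of known Notch function, of which 50 could be tested. Of the 50, 14 rose and 3 fell at 3 days, 19 rose and 5 fell at 7 days, and 14 rose and 3 fell between the times, so that 34%, 48% and 34% passed beside the 29.0%, 54.5% and 33.2% of all genes. The median log2 difference of these 50 genes was 0.08, 0.20 and 0.12 in the 3 comparisons. Up to 3 genes a role are named, those with the largest passing 7-day differences and a mean of at least 100.

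Among the genes that prepare and cut the receptor, FURIN, the convertase that cleaves Notch on its way to the surface, was at 4606 and 4869 normalized counts in SB, 11044 and 14486 after 3 days and 18824 and 14970 after 7 days. FURIN rose by 1.42 and 1.83 on the log2 scale (limma, adjusted p = 8.02e-06 and 4.06e-07), while POFUT1 and POGLUT1, which place the O-linked sugars, passed no test. Both ADAM proteases of the ligand-dependent cut rose at 7 days against SB, ADAM10 by 0.48 and ADAM17 by 0.52 (limma, adjusted p = 0.00082 and 0.0014), with 3-day differences of 0.06 and 0.20, and their differences between the times of 0.42 and 0.32 passed as well (limma, adjusted p = 0.0048 and 0.038). The last of these was lost without any 1 of the 4 TGFβ libraries (adjusted p from 0.063 to 0.19), and that of ADAM10 without TGFβ 7-day replicate 2 (adjusted p = 0.063). ADAM10 stood at 0.29 at 7 days with the GC and length correction.

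The γ-secretase subunits changed unequally. APH1B was at 323 and 398 normalized counts in SB, 712 and 692 after 3 days and 1272 and 1248 after 7 days, a rise of 0.97 and 1.81 on the log2 scale (limma, adjusted p = 0.00012 and 2.89e-07). Nicastrin (NCSTN) rose by 0.31 and 0.82 (limma, adjusted p = 0.015 and 6.8e-06). The NCSTN call at 3 days was lost without TGFβ 3-day replicate 1 (adjusted p = 0.13) or without the trend (adjusted p = 0.069). PSEN2, APH1A and PSENEN passed no test. Per kilobase APH1A still held 38.2% of the summed subunit level at 7 days and APH1B 4.26%, from 47.8% and 1.51% in SB. With the length over all annotated exons the APH1B share was 7.50% at 7 days and 2.5% in SB.

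In the nucleus RBPJ was at 6187 and 5484 normalized counts in SB, 9059 and 8672 after 3 days and 8179 and 8823 after 7 days. RBPJ rose by 0.61 and 0.54 on the log2 scale (limma, adjusted p = 0.00029 and 0.00028), with no detectable difference between the times (-0.06, limma, adjusted p = 0.63). The coactivator MAML1 rose by 0.29 and 0.26 (limma, adjusted p = 0.021 and 0.018), and the acetyltransferase KAT2B fell by 0.79 and 0.91 (limma, adjusted p = 0.00031 and 4.42e-05). Both MAML1 calls were lost without SB replicate 1 (adjusted p = 0.057 and 0.055) or either library of the time compared (adjusted p from 0.078 to 0.13), and its 7-day difference was 0.07 with the GC and length correction. Of 10 tested corepressor genes, 4 rose at 3 days, and 4 rose and 2 fell at 7 days, which is 40% and 60% of them beside 29.0% and 54.5% of all genes tested. Among them, TLE1 was at -0.51 and SPEN at 0.45 at 7 days (limma, adjusted p = 0.0024 and 0.012). The correction brought SPEN to 0.06, and it was at 0.20 without SB replicate 1 (adjusted p = 0.083) and at 0.41 without TGFβ 7-day replicate 1 (adjusted p = 0.070).

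Among genes of ligand endocytosis and receptor turnover, the ubiquitin ligase MIB1, which ligand cells need to signal, rose by 0.31 and 0.56 on the log2 scale (limma, adjusted p = 0.029 and 0.00036). Its 3-day call was lost without either SB library (adjusted p = 0.092 and 0.053) or TGFβ 3-day replicate 1 (0.22, adjusted p = 0.25), and its 7-day value was 0.37 with the correction. The Notch antagonist NUMB rose by 0.62 and 0.90 (limma, adjusted p = 0.00012 and 2.84e-06), and the Deltex gene DTX3 by 0.77 at 7 days (limma, adjusted p = 0.00019). The noncanonical ligand gene DNER was at 215 and 111 normalized counts in SB, 483 and 471 after 3 days and 817 and 830 after 7 days. DNER rose by 1.62, and by 2.41 at 7 days (limma, adjusted p = 0.00027 and 5.13e-06), whereas DLK1 was listed at 0 throughout and DLK2 passed no test.

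**Figure D4:**
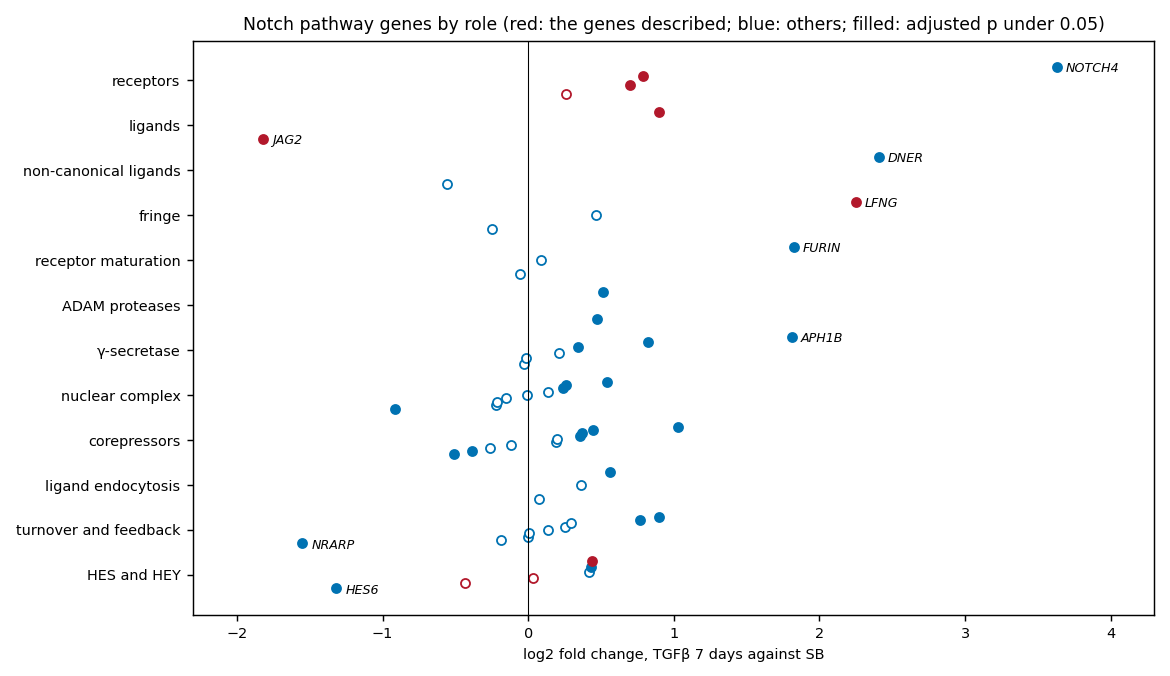
Log2 difference of TGFβ 7 d against SB (horizontal axis) for each tested Notch pathway gene by role (rows), with the 9 tested Notch genes in red, the 50 other genes in blue, and filled points at an adjusted p under 0.05. NOTCH4 (3.63), DNER (2.41) and LFNG (2.25) lie farthest to the right, and JAG2 (-1.82), NRARP (-1.55) and HES6 (-1.32) farthest to the left.

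LFNG, the one of the 9 tested Notch genes with the largest 7-day difference, was compared with the other genes of mean at least 100 by the Euclidean distance between log2 values centered on their mean over the 6 libraries. Of 11388 genes compared, the nearest were SLC2A10 (distance 0.294), FAM171A1 (0.318) and GALNT12 (0.335). GALNT12, an enzyme that starts mucin-type O-glycans, was at 286 and 406 normalized counts in SB, 559 and 543 after 3 days and 1626 and 1723 after 7 days. SLC2A10, a sugar transporter gene, was at 112 and 134, 209 and 227, and 570 and 613. These genes were chosen for their likeness to LFNG over these libraries, so their course is a description and was not tested.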

How the data were processed

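RNA-seq was performed on 6 H2087-LCC libraries made with a kit that does not mark strand. The authors aligned read pairs to hg19 with STAR, counted those mapping once on annotated genes with HTSeq 0.6.1p1 and normalized by library size with DESeq2 3.4, version numbers as in the submitters' processing notes. The deposited values are whole-number normalized counts, recorded here under the unit score, so the negative binomial test of the study, which needs unnormalized counts, was replaced. After a log2(value + 1) transformation, 14395 genes whose mean reached 10 entered 1 model of 3 groups with limma 3.58.1 in R 4.3.3 (trended empirical Bayes, 3 residual degrees of freedom, Benjamini-Hochberg adjustment, threshold 0.05). In simulated data of 14386 genes these steps called 200 of 200 genes changed 2-fold or 4-fold, and 14 unchanged genes, for 7 days against SB. The changed genes were drawn from genes well above the minimum mean of 10, and every gene was given 1 common spread. How often these steps find smaller differences, or changes in lower or more variable genes, was not tested.

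Positions and lengths came from GENCODE 44 mapped to GRCh37. The 10 genes, the pathway and marker lists and the rule for named genes (all receptors, ligands, fringe, HES and HEY genes, and up to 3 genes a role by 7-day difference) were chosen with earlier results of these data known; a few genes of these lists are not reported here. The alternatives were other pseudocounts, filters and scalings, limma without trend, only the libraries compared, a block on replicate number, omission of each library, and, added after seeing the data, a GC and length correction (12837 genes, loess span 0.5) and a crossed block. The squared difference between libraries of a group was set against counting variance for each gene with a mean of at least 100. Scaled so that counting error alone gives 1, the median ratio was 10.5, 9.23 and 7.80 for SB, 3 days and 7 days. Counting error alone therefore understates the spread. Figures were drawn with matplotlib 3.10.9.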

Additional observations from a re-analysis of the deposited data

Results flagged for a closer look

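For 4 of the genes 7 days of TGFβ differed from 3 days of TGFβ, tested in limma with adjustment over all genes. Both times were set against the same SB libraries, so the SB mean drops out of this difference. Longer TGFβ and longer culture cannot be told apart in this difference. LFNG differed most, by 1.51 on the log2 scale (adjusted p = 0.0001), with 0.74 at 3 days and 2.25 at 7 days. NOTCH3 differed by 0.70 (adjusted p = 0.013), from -0.44 to 0.26, neither of which passed against SB. JAG2 differed by -0.62 (adjusted p = 0.041), from -1.20 to -1.82, and NOTCH2 by 0.22 (adjusted p = 0.040), from 0.57 to 0.79. Without TGFβ 3-day replicate 1, the LFNG call alone was kept.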

How the results depend on the processing

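Over all named genes, 1541 of 1719 values under an alternative kept their direction and side of the threshold, 117 lost the call, 42 gained one and 19 turned. At 3 days against SB, 5 of the Notch genes and 17 other pathway genes passed; these were 3 and 11 without a filter on low values, 8 others without the trend, and 3 to 6 and 10 to 14 with 1 library left out, the fewest Notch genes without TGFβ 3-day replicate 2 and the fewest others without TGFβ 3-day replicate 1 (10) or 2 (11). At 7 days against SB, 6 and 24 passed, and every alternative stayed within 1.5 times of these (6 to 7 and 19 to 29 with 1 library left out). Between the times, 4 and 17 passed; these were 2 and 9 without the filter, 1 and 10 without the trend, 28 others with the GC and length correction, and 1 to 4 and 5 to 22 with 1 library left out (the 4 Notch genes became 1 without TGFβ 3-day replicate 1 and 2 without each other TGFβ library, and the 17 others became 6 and 12 without 3-day replicate 1 and 2, and 5 and 6 without 7-day replicate 1 and 2). Over all genes, calls at 3 days went from 4170 of 14395 to 2846 of 19977 without the filter and 2966 without the trend. Those between the times went from 4775 of 14395 to 3042 of 19977 without the filter and 3122 without the trend. With the GC and length correction, 5973 of 12837 genes passed between the times. Leaving out a TGFβ library also lowered the calls over all genes in both comparisons. A group left with 1 library was assumed to vary like the others. The causes were not tested.

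Turned values at 3 days were HEY2 at -0.043 with equal totals and from -0.65 to 0.67 with 1 library left out (-0.27 without SB replicate 2, -0.65 without TGFβ 3-day replicate 1), and ADAM10 from -0.038 (without SB replicate 1) to 0.16 and at -0.076 with the GC and length correction. At 7 days they were NOTCH3 from -0.015 (without SB replicate 1) to 0.53 and at -0.17 with the correction, and HEY1 from -0.13 (without SB replicate 1) to 0.20 and at -0.014 with equal totals. Between the times they were NOTCH1 from -0.094 to 0.28 (below 0 without replicate 1 of 3 or 7 days) and at -0.23 with the correction, HEYL from -0.037 to 0.28 (below 0 without replicate 1 of either time), HES2 from -0.24 to 0.13 (above 0 without replicate 2 of either time), HEY2 from -0.25 (without 3-day replicate 2) to 1.07, and SPEN from -0.014 (without 7-day replicate 1) to 0.066 and at -0.19 with the correction. The causes were not tested.

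With the replicate number as a block, 5, 6 and 3 Notch genes and 16, 23 and 16 others passed at 3 days, 7 days and between the times. The numbers did not pair the libraries, with correlations of deviations of 0.14 between SB and 3 days, -0.10 between SB and 7 days and -0.29 between the times. With the 7-day numbers crossed, 6, 6 and 5 Notch genes and 22, 27 and 23 others passed. Over all 14395 genes, 3943, 7546 and 4485 passed with the block, and 5404, 8763 and 5972 with the crossed numbers. The main fit had 4170, 7851 and 4775. With equal library totals, 41.6% of the genes called at 3 days were higher, beside 51.5% in the main scaling, and the median over all genes moved by less than 0.1.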

Other observations

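Markers of the airway fates that Notch is known to steer moved in different directions or were low. Of 5 secretory cell genes 3 had a row, and SCGB3A2 was at 414 and 642 normalized counts in SB, 15 and 11 after 3 days and 0 and 0 after 7 days, while SCGB1A1 was listed at 0 and MUC5B at 1 or below. FOXJ1, the ciliated cell regulator, was at 124 and 159 in SB, 72 and 89 after 3 days and 45 and 44 after 7 days, and fell by 0.80 and 1.64 on the log2 scale (limma, adjusted p = 0.018 and 7.5e-05). DNAI1, an axonemal dynein gene, went the other way, from 0 and 6 in SB and 7 and 5 after 3 days to 27 and 33 after 7 days, and of the other ciliated genes RSPH1 was at 8 and 6 in SB, 8 and 7 after 3 days and 19 and 11 after 7 days, and TEKT1 was listed at 0. Of 7 neuroendocrine genes 4 had a row; GRP was listed at 0, CHGA at 2 or below and SYP at 9 to 17. The part of Notch in these values was not tested.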
